A study of Homo sapiens with 2 samples.

Results

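The 10 AP-1 transcription factor genes FOS, FOSB, FOSL1, FOSL2, JUN, JUNB, JUND, ATF3, MAFF and BATF3 were followed in A549, a long-established line from a human lung adenocarcinoma. The genes were chosen by name, and all 10 were found among the 24462 gene symbols of the count files, each on a single row. The comparison is between 1 library from A549 cells that received siRNAs against ADGRF4, an adhesion G protein-coupled receptor, and 1 library from A549 cells that received control siRNAs. Both cultures were grown in DMEM with fetal bovine serum, and polyadenylated transcripts were read from their 3' ends with the Lexogen QuantSeq kit. The ADGRF4 siRNA library held 9825320 counts and the control siRNA library 10396047. Neither treatment was repeated, so each difference is between 2 libraries, no test between the treatments was possible and no p-value is given.

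AP-1 is a family of dimers of basic leucine zipper (bZIP) proteins. A Jun protein can pair with itself, with another Jun protein or with a Fos protein, whereas Fos proteins need a partner. ATF3 and BATF3 pair with Jun proteins, and MAFF, a small Maf protein without a transactivation domain, pairs with other bZIP factors. Several of these genes are immediate early genes, whose short-lived transcripts are induced within minutes by serum, growth factors, stress or calcium and cAMP signals. JUND is the member known for steady expression in resting cells. In lung epithelium and lung tumours, AP-1 acts downstream of MAP kinase signalling and controls genes of proliferation, invasion and inflammation.

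The promoters of 8 of the 10 genes were listed in RefSeq (GRCh38.p14), from 250 bases before to 50 after a transcription start, with a second window each for ATF3 and MAFF. FOSL1 and BATF3 were not matched. The stretches just before the start are shown with matches to known types of site for cAMP and stress signals marked. Of the marked letters, the JUNB stretch holds only TATAAA. Capitals mark TGACG (written CGTCA where it lies on the other strand), which is the core of the cAMP response element TGACGTCA, the related octamer TGACATCA, which in the JUN promoter is known as a site for Jun and ATF2 dimers, and TATAAA. Position -1 is the base before the annotated start, and the ATF3 and MAFF stretches come from the first window of each gene.
FOS promoter, chr14:75278698-75278827, plus strand, positions -130 to -1: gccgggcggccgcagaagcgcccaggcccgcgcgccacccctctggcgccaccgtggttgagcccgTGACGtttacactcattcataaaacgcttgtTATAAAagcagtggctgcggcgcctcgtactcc
FOSB promoter, chr19:45467866-45467995, plus strand, positions -130 to -1: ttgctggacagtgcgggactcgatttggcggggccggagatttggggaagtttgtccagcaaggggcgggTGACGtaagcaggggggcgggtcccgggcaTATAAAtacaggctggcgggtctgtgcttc
FOSL2 promoter, chr2:28392728-28392857, plus strand, positions -130 to -1: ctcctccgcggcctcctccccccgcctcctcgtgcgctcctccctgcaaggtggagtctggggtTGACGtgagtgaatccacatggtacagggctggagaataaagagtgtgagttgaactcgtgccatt
JUN promoter, chr1:58784048-58784177, minus strand, positions -130 to -1: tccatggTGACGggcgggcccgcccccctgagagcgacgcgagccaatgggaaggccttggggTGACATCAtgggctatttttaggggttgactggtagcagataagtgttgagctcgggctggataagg
JUNB promoter, chr19:12791356-12791485, plus strand, positions -130 to -1: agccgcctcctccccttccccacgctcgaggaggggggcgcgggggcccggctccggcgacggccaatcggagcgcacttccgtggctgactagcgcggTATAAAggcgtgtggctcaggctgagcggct
JUND promoter, chr19:18281623-18281832, minus strand, positions -210 to -1: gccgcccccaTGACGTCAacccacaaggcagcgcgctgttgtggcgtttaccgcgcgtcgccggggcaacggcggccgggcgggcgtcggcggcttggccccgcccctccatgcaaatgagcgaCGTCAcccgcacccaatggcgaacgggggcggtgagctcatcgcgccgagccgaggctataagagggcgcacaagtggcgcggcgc
ATF3 promoter, chr1:212565277-212565406, plus strand, positions -130 to -1: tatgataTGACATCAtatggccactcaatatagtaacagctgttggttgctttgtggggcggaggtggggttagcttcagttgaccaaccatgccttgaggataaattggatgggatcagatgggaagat
MAFF promoter, chr22:38201864-38201993, plus strand, positions -130 to -1: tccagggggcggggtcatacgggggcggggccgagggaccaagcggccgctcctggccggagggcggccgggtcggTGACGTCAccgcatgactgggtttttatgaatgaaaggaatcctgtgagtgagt

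The TGACG core was found in 7 of the 10 windows on either strand, against 24.6% of all 35116 RefSeq windows of the same length. In FOS it lay at positions -64 to -60, in FOSB at -60 to -56 and in FOSL2 at -66 to -62, so these Fos genes carried it at nearly the same distance from the start. FOSL2 carried another at -201 to -197, upstream of the stretch shown, and JUNB carried its only one at -137 to -133, also upstream. The full element TGACGTCA was found for JUND at -200 to -193 and for MAFF at -54 to -47, against 1.85% of all windows. It reads the same on both strands. TGACATCA, which was searched for after the windows had been read, was found for JUN at -67 to -60 and for ATF3 at -123 to -116, against 2.61% of all windows. TGACTCA, the AP-1 binding site known as the TPA response element, whose other strand reads TGAGTCA, was found only for FOSL2, at positions 5 to 11 after the start, against 4.95% of all windows. TATAAA stood before the start of FOS, FOSB and JUNB and in the second ATF3 window, against 11.5% of all windows. No window held a CArG box, the site of serum response factor, which 1.29% of all windows held. Bases more than 250 before the start were not searched, so a CArG box further upstream would be missed. GGAA, the core of ETS factor sites, was found in every window but that of JUND, against 95.5% of all windows. A match is a description of these letters and not evidence of binding.

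Among the Jun genes, JUNB was lower and JUND higher in the ADGRF4 siRNA library. JUNB, which can restrain JUN and is itself an immediate early gene, had 389 counts in the ADGRF4 siRNA library (exact Poisson 95% interval 351 to 430) and 1485 in the control siRNA library (1410 to 1563). Scaled with TMM, edgeR's trimmed-mean factors, these were 41.7 and 135.7 CPM (counts per 1e6 scaled counts), a level 3.25-fold lower after ADGRF4 siRNA (exact 95% interval of the ratio 2.91 to 3.65). Its log2 ratio, computed like all log2 ratios here on CPM + 1, was -1.68, lower than that of 97.4% of the 11771 symbols compared. All such intervals are for counting error only and cover no spread between cultures. They treat reads as independent, which reads without molecular identifiers are not, so they may be too narrow even for counting error. The lower level of JUNB was found under all 7 alternatives tried for single genes, which gave log2 ratios of -1.83 to -1.59. Among these, taking the largest row of a repeated symbol could not alter the counts of JUNB, which stands on a single row. An exon of HOOK2 lies over the JUNB exon on the other strand in GENCODE 29, and whether strand was used in counting is not given in the sources used here. HOOK2 itself had 198 and 203 counts in the ADGRF4 and control siRNA libraries.

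JUND had 3632 counts in the ADGRF4 siRNA library (3515 to 3752) and 2244 in the control siRNA library (2152 to 2339), or 389 and 205 CPM. It was 1.90-fold higher (1.801 to 2.002) after ADGRF4 siRNA, a log2 ratio of 0.92 that 9.97% of the compared symbols exceeded. JUN, the founding member and main transactivator of the Jun proteins, was nearly level, with 1537 counts in the ADGRF4 siRNA library and 1865 in the control siRNA library, or 165 and 170 CPM. On TMM scaling the interval of its ratio, 0.903 to 1.03, includes 1, so a difference of JUN was not detectable beyond counting error. Under total-count scaling the log2 ratio of JUN was -0.20, which lies outside that interval.

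**Figure D1:**
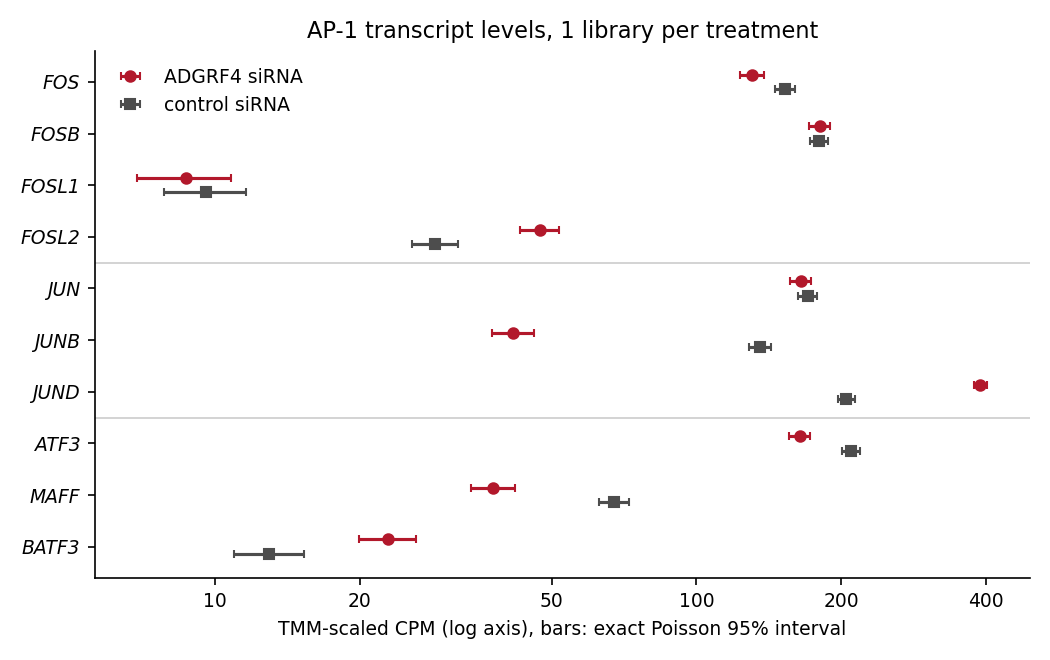
Level of each AP-1 gene in TMM-scaled CPM on a log axis, with exact Poisson 95% intervals, for the ADGRF4 siRNA library (red circles) and the control siRNA library (grey squares), ordered as Fos genes, Jun genes and other members. JUNB and MAFF lie lower and JUND, FOSL2 and BATF3 higher in the ADGRF4 siRNA library, while FOSB and JUN nearly coincide.

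The make-up of the Jun transcripts therefore differed between the libraries, and a share within a library does not depend on how the libraries are scaled. JUND made up 65.3% of the Jun counts in the ADGRF4 siRNA library (exact binomial 95% interval 64.1% to 66.6%) and 40.1% in the control siRNA library (38.8% to 41.4%). JUNB made up 6.999% (6.34% to 7.70%) in the ADGRF4 siRNA library and 26.5% (25.4% to 27.7%) in the control siRNA library. JUN made up 27.7% (26.5% to 28.9%) and 33.3% (32.1% to 34.6%) in the ADGRF4 and control siRNA libraries. The ratio of JUNB to JUND counts was 0.107 in the ADGRF4 siRNA library and 0.662 in the control siRNA library, 6.18-fold lower (5.45 to 7.01) after ADGRF4 siRNA. QuantSeq gives about 1 read per transcript end whatever its length, so counts of different genes were set side by side without dividing by length, but priming and mapping still differ between genes.

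**Figure D2:**
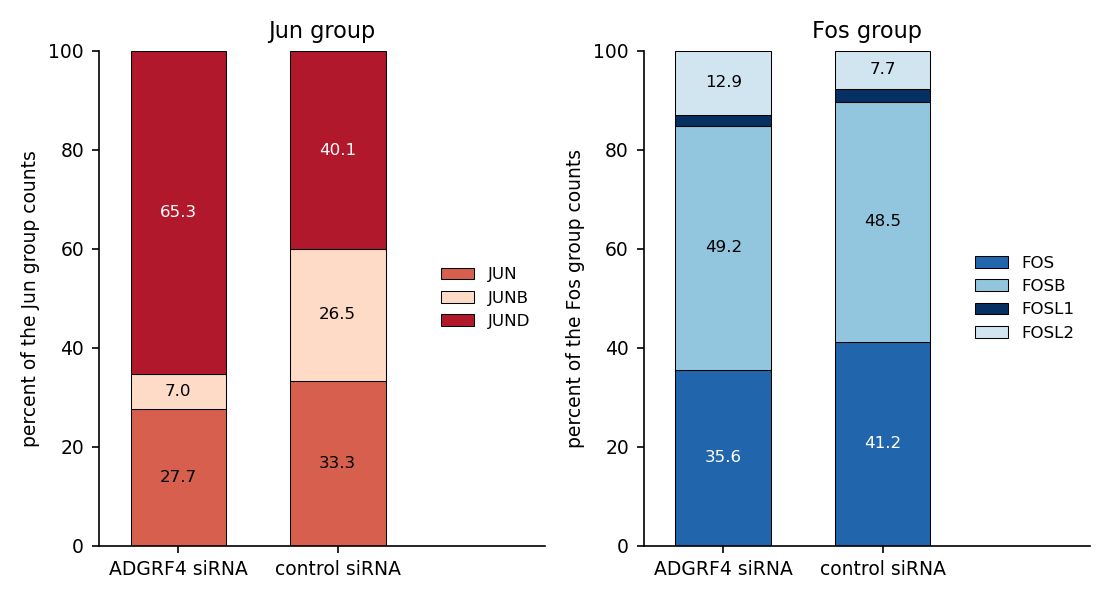
Percent of the Jun group counts (left) and of the Fos group counts (right) that came from each gene, with the ADGRF4 siRNA library left of the control siRNA library in each panel. JUND takes 65.3% and 40.1% of the Jun counts in the ADGRF4 and control siRNA libraries, and FOSL2 takes 12.9% and 7.74% of the Fos counts.

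The Fos genes were closer to level. FOS, the classic serum-induced gene, had 1217 counts in the ADGRF4 siRNA library and 1672 in the control siRNA library, or 130.4 and 153 CPM. It was 1.17-fold lower (1.09 to 1.26) after ADGRF4 siRNA on TMM scaling, but its log2 ratio of -0.23 became 0.098 once ratios were centred on the base composition of transcript ends. FOSB, a close relative of FOS, had 1682 counts in the ADGRF4 siRNA library and 1967 in the control siRNA library, or 180.2 and 179.7 CPM. The ratio of FOSB was 1.00 (0.939 to 1.07) on TMM scaling, with no difference detectable beyond counting error. FOSB was thus read more often than FOS in both libraries, with 0.724 FOS counts for each FOSB count in the ADGRF4 siRNA library (0.672 to 0.779) and 0.850 in the control siRNA library (0.796 to 0.908).

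The Fos-related genes FOSL1 and FOSL2 encode FRA1 and FRA2, which lack the transactivation domain of FOS. FOSL2 had 441 counts in the ADGRF4 siRNA library (401 to 484) and 314 in the control siRNA library (280 to 351), or 47.3 and 28.7 CPM. It was 1.65-fold higher (1.42 to 1.91) after ADGRF4 siRNA and supplied 12.9% of the Fos counts in the ADGRF4 siRNA library (11.8% to 14.1%), against 7.74% in the control siRNA library (6.93% to 8.60%). FOSL1, a member known for high levels in invasive carcinoma lines, was the lowest of the 10 in both libraries, with 81 counts in the ADGRF4 siRNA library and 105 in the control siRNA library, or 8.68 and 9.59 CPM. Its ratio of 0.905 (0.669 to 1.22) was not distinguishable from 1 at this depth. FOSL1 has 1 named processed pseudogene, FOSL1P1, that could share its reads.

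ATF3, a stress-induced factor that often represses, had 1530 counts in the ADGRF4 siRNA library and 2294 in the control siRNA library, or 164 and 210 CPM, and was 1.28-fold lower (1.20 to 1.36) after ADGRF4 siRNA. MAFF had 353 counts in the ADGRF4 siRNA library (317 to 392) and 739 in the control siRNA library (687 to 794), or 37.8 and 67.5 CPM, and was 1.78-fold lower (1.57 to 2.03). BATF3, known for its role in dendritic cells and as a partner of Jun proteins, had 213 counts in the ADGRF4 siRNA library (185 to 244) and 142 in the control siRNA library (120 to 167), or 22.8 and 12.97 CPM, and was 1.76-fold higher (1.42 to 2.19).

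By a limit of 1.5-fold, 3 of the 10 genes were higher in the ADGRF4 siRNA library (JUND, FOSL2 and BATF3), 2 were lower (JUNB and MAFF) and 5 lay between. Of all 11771 symbols that averaged 30 counts or more, 21.1% were at least 1.5-fold higher and 22.3% at least 1.5-fold lower, so the shares among the AP-1 genes, 30% and 20%, were near those of all symbols. All 10 members passed the limit on counts. At 2-fold, JUNB alone remained, against 7.84% of all symbols higher and 10.4% lower. The median log2 ratio of the 10 genes was -0.089 and that of all compared symbols -0.016, with an SD over the symbols of 0.77.

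**Figure D3:**
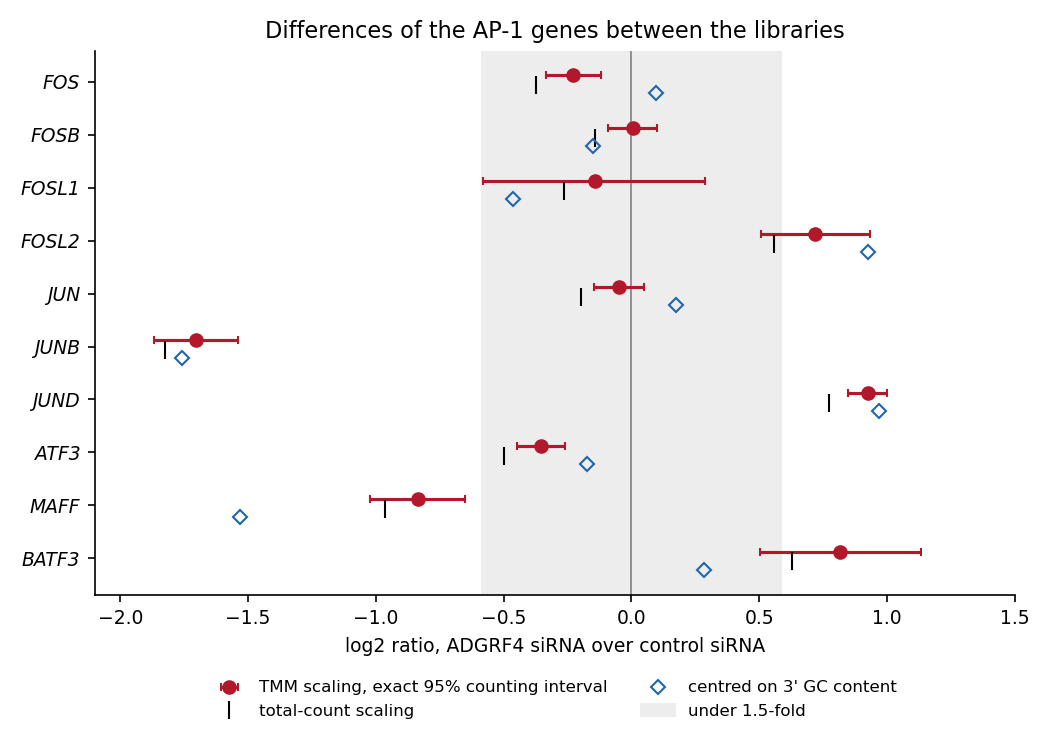
Log2 ratio of each AP-1 gene, ADGRF4 siRNA over control siRNA. Red circles with bars give the TMM-scaled ratio without a pseudocount and its exact 95% counting interval, black ticks the log2 ratio of CPM + 1 under total-count scaling, blue diamonds that of CPM + 1 after centring on 3' GC content, and the grey band differences under 1.5-fold. JUNB, MAFF and JUND lie outside the band by all 3 measures, FOSL2 is inside it under total-count scaling (0.56) and BATF3 after centring (0.28).

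Summed over members, AP-1 transcripts were about as abundant in both libraries. The 10 genes together gave 1187 CPM in the ADGRF4 siRNA library and 1172 CPM in the control siRNA library, a ratio of 1.01 (0.987 to 1.04) on TMM scaling that turned to 0.914 under total-count scaling. The Fos genes together gave 366.6 and 370.7 CPM in the ADGRF4 and control siRNA libraries, a ratio of 0.989 (0.945 to 1.04). The Jun genes gave 596 and 511 CPM, a ratio of 1.17 (1.12 to 1.21). ATF3, MAFF and BATF3 together gave 225 and 290.1 CPM, a ratio of 0.774 (0.732 to 0.819). Under total-count scaling the ratio was 0.892 for the Fos genes, 1.05 for the Jun genes and 0.699 for ATF3, MAFF and BATF3. Each of these lies outside its interval above, so the size of the group differences depends on the scaling. There were 0.616 Fos counts for each Jun count in the ADGRF4 siRNA library (0.590 to 0.642) and 0.725 in the control siRNA library (0.697 to 0.755).

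The order of the levels differed between the libraries. In the ADGRF4 siRNA library JUND led, with 2.16 counts for each count of FOSB (2.04 to 2.29), which came next. JUN and ATF3, in the next places, did not differ beyond counting error, nor did FOSL2 and JUNB or JUNB and MAFF, which stood below FOS. In the control siRNA library ATF3 and JUND shared the lead within counting error, FOSB and JUN also lay within it, and FOS, JUNB, MAFF, FOSL2, BATF3 and FOSL1 followed, each apart from the next beyond counting error. JUNB was sixth there, with 2.01 counts for each count of MAFF (1.84 to 2.20), whereas in the ADGRF4 siRNA library the ratio of JUNB to MAFF was 1.10 (0.952 to 1.28).

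The ratio between the 2 libraries followed a trend with the base composition of the transcript end, which touches these genes. Among the 1155 symbols with the lowest GC content over the last 300 bases (median 27.0%), the median log2 ratio was -0.34, and among the 1155 with the highest (median 60.7%) it was 0.77. FOS had the lowest 3' GC content of the members, 27.7%, and MAFF the highest, 58.0%. MAFF was therefore lower against the direction of the trend, and centring moved its log2 ratio of -0.82 to -1.53. JUNB (44.7% GC) and JUND (43.0%) had nearly the same 3' GC content, and their log2 ratios after centring were -1.76 and 0.97. FOSL2 (35.7%) had a ratio of 0.92 after centring, whereas that of BATF3 (53.3%) was 0.28 and no longer reached 1.5-fold. The signs of FOS, JUN and FOSB turned with centring, to 0.098, 0.17 and -0.15. The part of this trend in each difference was not tested beyond this centring.

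**Figure D4:**
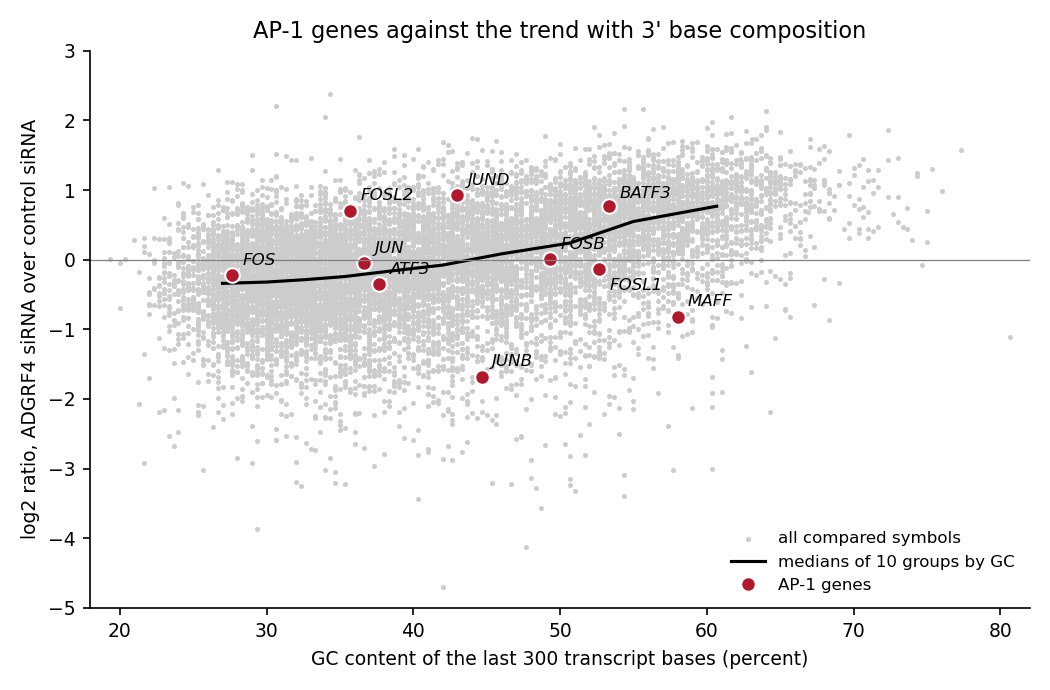
Log2 ratio (CPM + 1, ADGRF4 siRNA over control siRNA) against the GC content of the last 300 transcript bases in percent, for all compared symbols with a value (grey), the medians of 10 equal groups of symbols by GC content (black line) and the AP-1 genes (red). JUNB and MAFF lie well below the line, JUND and FOSL2 above it, and FOS, JUN, ATF3 and BATF3 near it.

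AU-rich elements containing ATTTA mark many immediate early transcripts for rapid decay. At least 1 ATTTA was found in the last 300 bases of 7 of the 10 members, against 44.9% of the 11545 compared symbols with a sequence. FOS held 5, JUN and JUNB 2 each, and JUND, FOSL1, ATF3 and BATF3 1 each, while FOSB, FOSL2 and MAFF held none in that stretch. The part of these elements in the differences was not tested.

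The list of other bZIP factors holds some further partners of AP-1 proteins and also factors that pair mainly within their own families. CEBPZ was listed by its name, is not a bZIP factor and is counted among the 30 listed genes with enough counts. Of these 30, 3 were higher and 4 lower by 1.5-fold or more in the ADGRF4 siRNA library, with a median log2 ratio of -0.13. These shares, 10% and 13.3%, stand beside 21.1% higher and 22.3% lower among all symbols. After centring on 3' GC content the list median was 0.017, with 3 higher and 3 lower. Under total-count scaling 8 genes of the list were lower, while the median of all compared symbols also moved, to -0.16. For total-count scaling and for centring, here and in the lists below, the shares of all symbols were not computed. JDP2, a Jun partner that represses AP-1 sites, was 2.97-fold higher (2.65 to 3.33), with 1086 counts in the ADGRF4 siRNA library and 429 in the control siRNA library. The small Maf genes related to MAFF did not share a direction. MAFK was 2.52-fold higher (2.44 to 2.60), with 11698 counts in the ADGRF4 siRNA library and 5447 in the control siRNA library, whereas MAFG was 2.51-fold lower (2.23 to 2.84), with 364 and 1073. CEBPG was 1.88-fold lower (1.56 to 2.28). A further 9 genes were under the count limit, and BATF, a relative of BATF3, had 0 counts in either library.

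The list of MAP kinase cascades to AP-1 holds kinases and scaffolds, and also phosphatases of the DUSP family, which switch MAP kinases off. Its genes lay on both sides, with 8 of 31 higher and 8 lower (median log2 ratio -0.050). DUSP genes were among the higher and among the lower ones, so the counts do not give a direction of the cascades. The shares were 25.8% each way, near the 21.1% higher and 22.3% lower among all symbols. MAP2K3, an activator of p38 kinases, was 5.48-fold lower (4.50 to 6.72), with 117 counts in the ADGRF4 siRNA library and 752 in the control siRNA library. MAP2K1, which encodes the ERK kinase MEK1, was 4.401-fold lower (3.08 to 6.44), with 37 and 191. MAPK8IP3, a scaffold of the JNK pathway, was 2.69-fold higher (2.25 to 3.23) and MAPK12, a p38 kinase, 2.53-fold higher (1.87 to 3.47). After centring on 3' GC content 2 genes of this list were at least 1.5-fold higher and 8 were lower. The share of all symbols after centring was not computed, so these counts are not read as an excess in either direction. The log2 ratios of MAPK8IP3 and MAPK12 became 0.53 and 0.37.

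Of 18 genes for factors that bind the FOS and JUN promoters or assist such factors, 5 were higher (27.8%) and 6 lower (33.3%). Among all symbols 21.1% were higher and 22.3% lower. The list median was -0.26, and after centring on 3' GC content it was -0.0035, with 4 genes higher and 5 lower. ELK1, which binds the FOS serum response element together with serum response factor, was 3.05-fold lower (2.19 to 4.31), with 47 counts in the ADGRF4 siRNA library and 168 in the control siRNA library. MEF2D, which acts on the JUN promoter, was 3.39-fold lower (2.76 to 4.18), with 118 and 469. CRTC1, a coactivator of CREB, was 3.34-fold higher (2.21 to 5.16) from low counts of 91 and 32, and its log2 ratio of 1.45 became 0.74 after centring on 3' GC content. TCF7L2, a Wnt effector, was 2.76-fold higher (2.62 to 2.90). Under total-count scaling, which moved the median of all compared symbols to -0.16, 3 of these genes were higher and 8 lower.

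A list of AP-1 protein turnover also holds coactivators and corepressors. Of its 15 compared genes, 1 was higher (6.67%), 3 lower (20%), a corepressor among them, and 11 between. Among all symbols 21.1% were higher and 22.3% lower. RFWD2, which encodes the ubiquitin ligase COP1 that targets JUN, was 3.39-fold lower (2.61 to 4.45), with 72 counts in the ADGRF4 siRNA library and 286 in the control siRNA library. COPS5, known as the JUN coactivator JAB1, had a ratio of 0.615 (0.489 to 0.770). GSK3A, a kinase of the family that marks JUN for degradation, was 2.44-fold higher (2.16 to 2.76), and FBXW7, the ubiquitin ligase that reads that mark, had a ratio of 1.49 (1.36 to 1.64). With centring on 3' GC content 3 of the list were higher and 2 lower. A list of AU-rich mRNA decay and deadenylation also holds binders of AU-rich elements that stabilise transcripts or silence their translation. Of its 23 genes, 1 was higher (4.35%) and 4 lower (17.4%), a stabilising factor among the lower ones, with a median of -0.22. After centring on 3' GC content the median of these genes was 0.11, with 2 higher and 3 lower. ZFP36L2, which binds AU-rich elements, was 3.09-fold lower (2.57 to 3.74), with 146 counts in the ADGRF4 siRNA library and 529 in the control siRNA library, and the deadenylase gene PAN2 was 6.32-fold lower (3.79 to 11.2), from 17 and 126 counts. KHSRP, another decay factor, was 1.57-fold higher (1.52 to 1.62), and BTG1, which recruits deadenylases, had a ratio of 1.497 (1.46 to 1.53). The log2 ratio of KHSRP fell short of 1.5-fold after centring (0.57) and under total-count scaling (0.50). That of BTG1 was 0.87 after centring and 0.43 under total-count scaling, so the genes called higher depend on the processing. Under total-count scaling 7 genes of this list were lower and 0 higher, with the median of all compared symbols at -0.16.

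Among genes reported as AP-1 targets in other cells, 12 (36.4%) of the 33 with enough counts were lower by 1.5-fold or more and 6 (18.2%) were higher, against 22.3% lower and 21.1% higher among all symbols, and the median was -0.23. After centring on 3' GC content 7 were lower and 5 higher, with a median of -0.041. The urokinase receptor gene PLAUR had 535 counts in the ADGRF4 siRNA library and 2194 in the control siRNA library, 3.496-fold lower (3.18 to 3.85), and PLAU, which encodes urokinase, had 47 and 147, 2.67-fold lower (1.91 to 3.79). The growth factor gene VEGFA was 1.63-fold lower (1.32 to 2.02) and did not reach 1.5-fold after centring, with a log2 ratio of -0.32. CCL2, a chemokine, had 15 counts in the ADGRF4 siRNA library and 128 in the control siRNA library, 7.27-fold lower (4.25 to 13.4), and the cytokine gene LIF had 20 and 136, 5.80-fold lower (3.61 to 9.79). CCND1, which encodes cyclin D1, was 1.51-fold lower (1.40 to 1.63), and HMGA1, a chromatin protein gene with 7 named processed pseudogenes, 1.56-fold lower (1.48 to 1.64). Centring moved the log2 ratio of CCND1 from -0.59 to -1.17 and that of HMGA1 from -0.64 to -1.35. CD44, a hyaluronan receptor gene, had a ratio of 0.785 (0.733 to 0.840). TGFB1 was 2.74-fold higher (2.23 to 3.39) and FHL2, a LIM protein gene, 2.49-fold higher (2.11 to 2.93). TIMP1, a metalloprotease inhibitor gene, had a ratio of 1.30 (1.21 to 1.39) whose sign turned after centring, with a log2 ratio of -0.12. A further 14 listed targets were under the count limit.

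**Figure D5:**
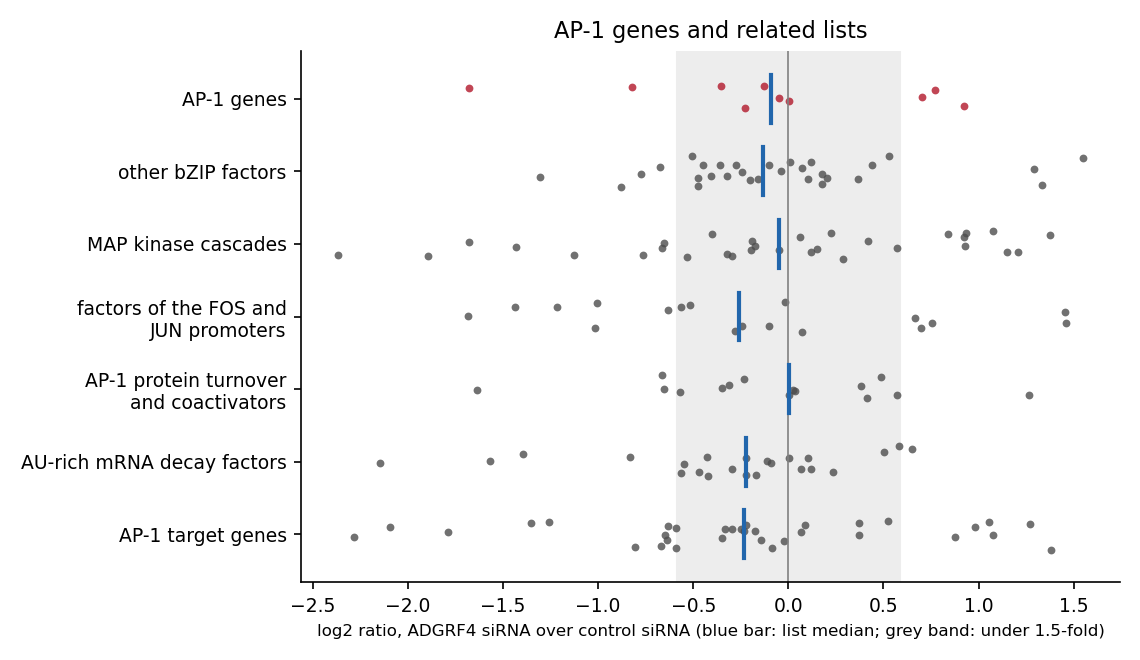
Log2 ratio (CPM + 1, ADGRF4 siRNA over control siRNA) of each compared gene of the AP-1 family (red) and of the related lists (grey), with the list median as a blue bar and differences under 1.5-fold as a grey band. Each list has genes on both sides, with medians between -0.26 and 0.0038.

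Of the 32 genes that the naming rule took from these lists, 16 have exons overlapped by another gene on the other strand in GENCODE 29, 7 by one on the same strand, and 6 have named processed pseudogenes. MAFK is overlapped by TMEM184A, MAP2K1 by SNAPC5, MAPK8IP3 by NME3, COPS5 by CSPP1 and TGFB1 by HNRNPUL1 on the other strand, and MAFG by SIRT7, MAPK12 by HDAC10 and PAN2 by CNPY2 on the same strand. Their counts are uncertain to that extent.

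Across the series, the silenced gene ADGRF4 had 1 count in the ADGRF4 siRNA library and 3 in the control siRNA library, at or under the 3 counts that a count of 0 allows, so the labels are not checked by it. All 10 listed markers of A549 and lung epithelial cells, among them KRT7, KRT8, KRT18 and AKR1B10, had over 3 counts in both libraries, with sums of 17632 CPM after ADGRF4 siRNA and 19714 CPM after control siRNA. Single markers differed in both directions, with KRT7 at 16919 and 7451 counts and AKR1B10 at 1828 and 10425 counts in the ADGRF4 and control siRNA libraries. The leukocyte, endothelial and fibroblast lists, of 5 genes each, summed to 3.86, 0.429 and 6.11 CPM after ADGRF4 siRNA and to 4.93, 0 and 4.66 CPM after control siRNA. CD3E, VWF and KDR were among the markers at 0 in both libraries.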

How the data were processed

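Polyadenylated transcripts of A549 cells were measured in 1 ADGRF4 siRNA library and 1 control siRNA library, made with the Lexogen QuantSeq kit from Trizol-extracted total RNA, per the labels' protocols. The authors deposited unscaled counts, as whole numbers, for each gene symbol. The tools named in the submitters' processing notes are Bowtie2 and edgeR, and the build is hg19. What each tool did, the annotation, the strand setting and the handling of multi-mapping reads were not given in the sources used here.

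From these deposited counts, rows that repeat a symbol were summed (286 of 24462 symbols, none of them an AP-1 gene). TMM factors came from edgeR 4.0.16 (R 4.3.3), and log2 ratios were taken on CPM + 1. Ratios of single genes were taken without a pseudocount, with exact Clopper-Pearson 95% intervals for counting error. The 11771 symbols that averaged 30 counts or more were compared, and differences were called by size alone, at 1.5-fold. The calculation was tested on simulated data.

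The 10 AP-1 genes and the 6 related lists were chosen with earlier results of these data known. From each list the text names the 2 highest and the 2 lowest compared genes, and from the targets also PLAU, PLAUR, CD44, HMGA1, CCND1, TIMP1 and VEGFA. Another target under this rule is not reported here. BATF, CEBPZ and HOOK2 were named after their values were seen. No gene was sought for a pattern like that of a member, since 2 libraries give a single ratio per gene. The GC content and ATTTA of the last 300 bases came from the longest GENCODE 29 transcript, found for 98.1% of compared symbols, and ratios were centred on the median of 20 GC bins. The ATTTA and TGACATCA searches were added after the data were seen. Promoters came from RefSeq (GRCh38.p14). Counts were made on hg19, so no coordinate was joined to them. Alternatives also covered upper-quartile scaling, scaling by total counts or by size factors from DESeq2 1.42.0, a pseudocount of 0.1 or of 5 CPM, limits of 100 counts and of 1 count in all, a 2-fold threshold and the largest row of a repeated symbol. Python 3.11.15, numpy 2.4.6, pandas 2.3.3, scipy 1.17.1 and matplotlib 3.10.9 were used.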

Additional observations from a re-analysis of the deposited data

How the results depend on the processing

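JUNB, JUND and MAFF kept their direction and their side of the 1.5-fold limit under all 7 alternatives run for single genes. FOSL2 fell short of the limit under total-count scaling (log2 ratio 0.56) and BATF3 after centring on 3' GC content (0.28). Under total-count scaling the median of all compared symbols moved to -0.16, and FOSB to -0.14. With the 2-fold threshold, 0 AP-1 genes were higher and 1 lower in place of 3 and 2. Over all 6 related lists 14 genes were higher and 20 lower in place of 24 and 37. Of all compared symbols, 7.84% were higher and 10.4% lower at 2-fold, and 21.1% and 22.3% at 1.5-fold. No share was computed for the pooled lists, so their counts are not read as an excess in either direction. No AP-1 gene stands on more than 1 row, so the choice among repeated rows could not change the shares within the Jun group. That choice is 1 of the 7 alternatives for single genes, and it could move their ratios only through the scaling factors. With 1 library per treatment none could be left out. No paired analysis was possible because each treatment has 1 library. Depth limits FOSL1 most, at 81 counts after ADGRF4 siRNA and 105 after control siRNA.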
